A study of Mus musculus with 10 samples.

Results

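The interferon regulatory factors are a family of transcription factors, and their messenger RNAs are described here in ox-LDL-treated macrophages. The 8 genes examined (Irf1, Irf2, Irf3, Irf4, Irf5, Irf7, Irf8 and Irf9) were taken by name from the 39488 rows of a table of estimated read counts. They were chosen with earlier results of these data known. All of the 8 genes passed the filter on low counts.

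Interferon regulatory factors (IRFs) share a DNA-binding domain that recognizes the interferon-stimulated response element and related sites. IRF3 is present in most cells and waits in the cytoplasm until a pathogen sensor triggers its phosphorylation, and IRF7 is the closely related member whose own gene is induced by interferon. IRF9 is the DNA-binding subunit of the complex ISGF3, which carries the type I interferon signal to the nucleus. IRF1 is an inducible activator, and IRF2 binds the same elements and was first known as its antagonist. IRF4 and IRF8 are close relatives that bind many sites together with the myeloid factor PU.1, and IRF5 acts downstream of Toll-like receptors on inflammatory cytokine genes. In macrophages, IRF5 and IRF8 are usually linked to inflammatory activation and IRF4 to alternative activation.

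Peritoneal macrophages of C57BL/6 mice aged 8 weeks, elicited with thioglycollate, gave 5 control and 5 ox-LDL libraries of bulk RNA, labelled as biological replicates; whether each came from its own mouse or from pooled mice is not given in the sources used here. The ox-LDL cells are labelled as having received lipopolysaccharide (LPS), the bacterial product that signals through Toll-like receptor 4, at 100 ng/ml. Oxidized low-density lipoprotein (ox-LDL), the modified particle that macrophages take up in atherosclerotic plaques, followed at 100 µg/ml for 16 h. The label of the control cells is untreated, although a legend in the study leaves it unclear whether they too were primed with LPS. Taken at their word, the labels mean that each difference below holds the effects of LPS and of ox-LDL, which cannot be told apart.

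Library totals were close, at 20094647 to 20687289 estimated counts in the controls and 19257131 to 20358017 in the ox-LDL group. Ox-LDL replicate 2 stood apart, with a TMM scaling factor of 0.593, whereas those of the remaining ox-LDL replicates were 0.837 to 1.19. Its deviations from the group mean trended with gene length (Spearman rho = -0.647 over 12654 genes), opposite in sign to the remaining ox-LDL replicates. Length trends were not particular to it, since control replicates 1 and 4 had -0.57 and -0.46 and the remaining controls 0.34 to 0.46. Control replicate 5 had the highest level of several inducible genes among the controls. The fold changes of Irf1, Irf7 and Irf8 are also given without each of these libraries, and the values that control replicate 5 moves most are given without it. All of the 8 macrophage markers were present, with summed levels of 19630 to 46769 CPM (counts scaled to a common library size) in the controls and 12146 to 47599 CPM in the ox-LDL libraries. T cell markers summed to at most 2.57 CPM in any library and dendritic cell markers summed to 5.03 to 11.2 CPM in controls and 3.57 to 5.14 CPM in ox-LDL libraries. Neutrophil markers summed to 19.7 to 38.3 CPM in controls and 20.4 to 156 CPM in ox-LDL libraries. Among them the mean of S100a8 went from 10.0 to 68.0 CPM and that of Mmp8 from 18.1 to 7.58 CPM. Ltf, Cxcr2, S100a9 and Retnlg also had lower means, whereas Camp, Ngp and Elane had higher means of at most 0.540 CPM. Mesothelial and stromal markers summed to 11.8 to 44.5 CPM in controls and 68.6 to 116 CPM in ox-LDL libraries. Of these, Col1a1 rose from 2.34 ± 1.39 to 15.5 ± 8.73 CPM and Dcn from 27.1 ± 10.7 to 80.4 ± 14.0 CPM. Upk3b was lower without overlap, from a mean of 0.524 to 0.0750 CPM, and Upk1b and Lrrn4 also had lower means. Msln, Krt8, Krt18, Krt19 and Wt1 had higher means, with groups that overlapped. The part of other cells in the results was not tested.

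The promoter is where signals from Toll-like receptors and interferon meet these genes, and the 250 bases before the transcription start in RefSeq (build GRCm38.p6) were read for all of the 8 genes, in 11 entries. They were searched on both strands for 4 motifs. These were the interferon-stimulated response element (ISRE, GAAANNGAAA) and the STAT element (GAS, TTCNNNGAA). The others were a narrow form of the kappaB element bound by NF-κB (GGGNNTTTCC) and the composite element for PU.1 and an IRF (EICE, GGAANNGAAA). Of 32851 promoters of the same length, 2.98% held the ISRE, 7.02% the GAS, 1.41% the kappaB and 2.30% the EICE letters. These letters were found in 3 genes, Irf1, Irf2 and Irf8. The 3 sequences with a match are shown, together with that of Irf7, which rose without a match in this window. Capitals mark the motif letters, and each line reads 5′ to 3′ toward the start site:
Irf1: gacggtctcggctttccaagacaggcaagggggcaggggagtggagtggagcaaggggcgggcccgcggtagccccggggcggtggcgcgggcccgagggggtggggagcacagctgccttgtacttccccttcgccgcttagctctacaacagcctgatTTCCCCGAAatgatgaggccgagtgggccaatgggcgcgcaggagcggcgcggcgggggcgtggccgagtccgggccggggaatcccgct
Irf8: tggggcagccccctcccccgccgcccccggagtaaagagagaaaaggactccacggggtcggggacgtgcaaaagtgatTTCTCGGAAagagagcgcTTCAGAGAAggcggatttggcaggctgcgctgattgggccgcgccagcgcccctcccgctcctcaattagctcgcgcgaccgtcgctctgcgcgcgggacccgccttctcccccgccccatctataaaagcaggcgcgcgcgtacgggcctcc
Irf2: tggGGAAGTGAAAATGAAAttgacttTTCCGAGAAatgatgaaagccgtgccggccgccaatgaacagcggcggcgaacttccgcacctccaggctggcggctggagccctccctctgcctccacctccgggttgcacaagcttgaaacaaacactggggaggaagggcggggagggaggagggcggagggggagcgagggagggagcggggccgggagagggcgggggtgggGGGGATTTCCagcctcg
Irf7: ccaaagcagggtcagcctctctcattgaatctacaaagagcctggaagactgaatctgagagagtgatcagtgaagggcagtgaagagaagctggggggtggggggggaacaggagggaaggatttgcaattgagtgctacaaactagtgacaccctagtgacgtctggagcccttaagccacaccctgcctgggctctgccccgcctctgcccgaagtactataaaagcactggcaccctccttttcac

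The Irf1 sequence (chr11:53769764-53770013, plus strand) held 1 GAS, TTCCCCGAA, 90 to 82 bases before the start. The Irf8 sequence (chr8:120736108-120736357, plus strand) held 2 GAS, TTCTCGGAA at 171 to 163 and TTCAGAGAA at 153 to 145 bases before the start. The Irf2 sequence (chr8:46739495-46739744, plus strand) held all of the 4 motifs, with the EICE GGAAGTGAAA and the ISRE GAAAATGAAA overlapping at 247 to 232, the GAS TTCCGAGAA at 224 to 216 and the kappaB GGGGATTTCC at 17 to 8 bases before the start. Irf2 therefore had the most matches of the family, whereas its RNA did not pass the test between the groups. The Irf7 sequence (chr7:141266425-141266674, minus strand) held none of these letters. A match is a run of letters, and no binding was measured. Other forms of these elements were not searched, so a sequence without a match, for kappaB above all, can still hold such an element.

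The inducible members Irf1, Irf7 and Irf8 rose strongly with ox-LDL, and the others did not pass the test. They were 26.0, 23.3 and 9.45 times higher than in controls, and Irf9 was 2.00 times higher in the group fit without passing the threshold. Irf2, Irf3, Irf4 and Irf5 differed by less than 1.5 times between the group fits. Called genes had an adjusted p below 0.01 by edgeR's quasi-likelihood test with Benjamini-Hochberg adjustment over 12654 genes. By this rule 3 of the 8 members were called higher, all of them also with a log2 fold change above 2, and 0 lower. Among all genes tested, 14.7% were called in either direction, 9.40% were called higher, 4.78% were called higher with a log2 fold change above 2, and 5.35% were called lower. None of the members had a negative fold change at an unadjusted p below 0.05, and DESeq2 also called 0 lower. The median log2 fold change was 0.68 over the members and 0.10 over all genes tested. In these bulk libraries, more cells that express a gene and more RNA of it per cell cannot be told apart.

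**Figure D1:**
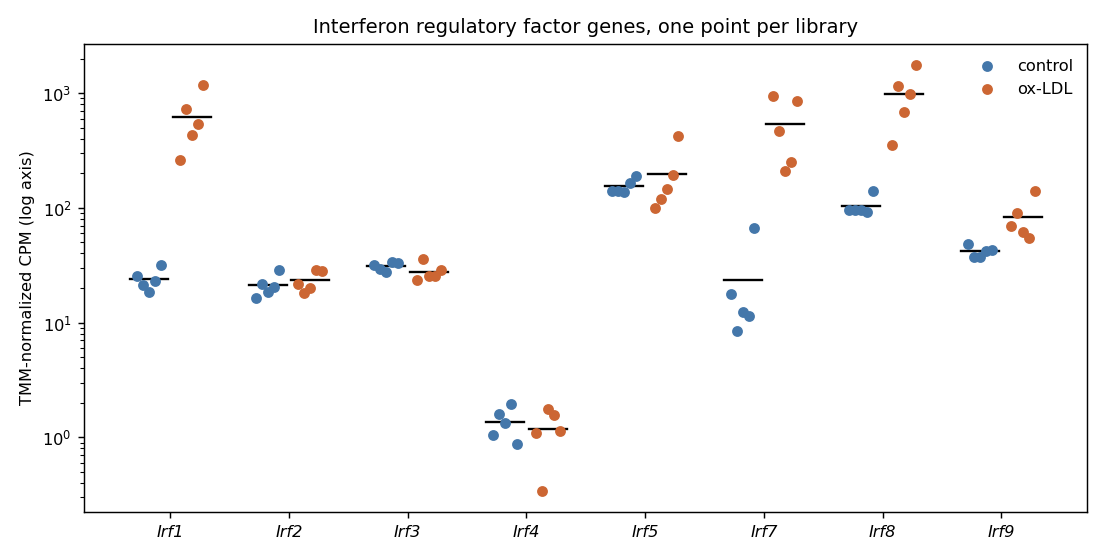
Level of each of the 8 IRF genes in every library (vertical log axis, TMM-scaled CPM), with 1 point per control or ox-LDL library and a black line at each group mean. All ox-LDL points lie above all control points for Irf1, Irf7, Irf8 and Irf9, whereas the groups overlap for Irf2, Irf3, Irf4 and Irf5.

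Irf1, the interferon-inducible activator, lies at chr11:53583516-53591876 on the plus strand (NCBIM37, which is mm9). Its CPM, scaled by TMM here and for the other genes, was 25.6, 21.1, 18.4, 23.2 and 31.7 in control replicates 1 to 5. The ox-LDL replicates 1 to 5 had 263, 726, 433, 534 and 1168 CPM of Irf1. No ox-LDL library overlapped the controls, with replicate 1 lowest and replicate 5 highest, and the controls lay close together. The group means were 24.0 ± 5.03 CPM and 625 ± 347 CPM (SD, n = 5 in each group), and the log2 fold change was 4.70 (SE 0.41, adjusted p = 2.14e-05, edgeR's quasi-likelihood test). Irf1 ranked 137 of 12654 genes by log2 fold change. It was 4.60 without ox-LDL replicate 2 and 4.82 without control replicate 5.

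Irf2, the factor that competes with IRF1 for the same DNA elements, spans chr8:47825099-47932812 on the plus strand. Control libraries held 16.2 to 28.7 CPM of Irf2 (median 20.4), and ox-LDL libraries 18.1 to 28.6 CPM (median 21.7). The ranges almost coincided, with a log2 fold change of 0.15 (SE 0.20, adjusted p = 0.647, edgeR). Within each library the ratio of Irf1 to Irf2 does not depend on scaling. Its log2 value lay between -0.05 and 0.66 in the controls and between 3.60 and 5.36 in the ox-LDL libraries, so that near-equal counts in controls became a large excess of Irf1. The mean difference was 4.40 on the log2 scale (two-sided exact permutation test, p = 0.00794, adjusted p = 0.0131 over 28 pairs of members). With 5 against 5 libraries, 0.00794 is the smallest p this test can give.

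Irf3, the constitutive factor downstream of cytosolic sensors and TRIF, lies at chr7:52253018-52258218 on the plus strand. Irf3 had 31.8, 29.1, 27.8, 33.9 and 32.8 CPM in control replicates 1 to 5 and 23.5, 35.5, 25.7, 25.3 and 28.9 CPM in ox-LDL replicates 1 to 5. Of the ox-LDL libraries, 3 were below all controls and replicate 2 was above them, so the groups overlapped. The log2 fold change was -0.16 (SE 0.16, adjusted p = 0.487, edgeR) and -0.31 without ox-LDL replicate 2, also without passing the test. In the deposited normalized values, treated as FPKM, which divide by gene length as well, Irf3 was 21.3 ± 2.36 in controls and 16.3 ± 2.23 in the ox-LDL group (SD, n = 5 each).

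Irf7, the interferon-inducible relative of Irf3, lies at chr7:148448605-148452380 on the minus strand. Control replicates 1 to 5 held 17.9, 8.39, 12.3, 11.5 and 66.3 CPM of Irf7, so control replicate 5 was far above the other controls. The ox-LDL replicates 1 to 5 held 939, 472, 209.6, 250.4 and 845 CPM, with replicates 1 and 5 highest and every library above all controls. The mean went from 23.3 ± 24.3 to 543 ± 336 CPM, and the log2 fold change was 4.54 (SE 0.70, adjusted p = 6.51e-04, edgeR). The log2 fold change was 5.44 without control replicate 5 and 4.56 without ox-LDL replicate 2. Without ox-LDL replicate 1 it was 4.25. The log2 ratio of Irf7 to Irf3 was -0.87 on average in controls and 4.05 in ox-LDL libraries, a difference of 4.92 (two-sided exact permutation test, p = 0.00794, adjusted p = 0.0131 over 28 pairs), and the control mean was -1.34 without replicate 5. Irf3 thus had more counts than Irf7 in 4 of 5 controls, and Irf7 more than Irf3 in 5 of 5 ox-LDL libraries.

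Irf9, the DNA-binding subunit of ISGF3, lies at chr14:56222408-56228867 on the plus strand. Its level was 48.2, 37.6, 37.1, 42.4 and 42.9 CPM in control replicates 1 to 5 and 70.0, 90.4, 61.1, 54.9 and 141 CPM in ox-LDL replicates 1 to 5. All ox-LDL libraries were above all controls, by a narrow margin in replicate 4. The mean was 41.6 ± 4.53 CPM in controls and 83.4 ± 34.7 CPM in the ox-LDL group, with a log2 fold change of 1.00 (SE 0.25, adjusted p = 0.0117, edgeR), just above the threshold of 0.01. The adjusted p was 0.00262 by DESeq2 and 0.00848 by edgeR without ox-LDL replicate 4, and it lay between 0.00262 and 0.0681 over the 24 alternatives. By no overlap alone, 4 of the 8 members were higher and 0 lower, where 11.5% of all genes were higher without overlap and 20.6% were apart in either direction. At an adjusted p below 0.05, 4 members were higher, where 16.2% of all genes were. Irf9 shares 123 bases, 2.28% of its exonic bases, with Rnf31 on the same strand, and Rnf31 rose by 1.38 on the log2 scale (adjusted p = 0.00353, edgeR).

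Irf8, which directs monocyte and dendritic cell development and acts with IRF1 in activated macrophages, spans chr8:123260258-123280594 on the plus strand. It was already abundant in controls, at 96.2, 95.8, 95.5, 91.9 and 141 CPM in replicates 1 to 5, the first 4 nearly equal. The ox-LDL replicates 1 to 5 held 353, 1145, 687, 987 and 1749 CPM, with replicate 1 lowest and replicate 5 highest, as for Irf1. The mean went from 104 ± 20.7 to 984 ± 524 CPM, a log2 fold change of 3.24 (SE 0.39, adjusted p = 1.46e-04, edgeR). It was 3.14 without ox-LDL replicate 2 and 3.37 without control replicate 5. The gain of Irf1 exceeded that of Irf8, since the log2 ratio of Irf1 to Irf8 went from -2.12 to -0.64, a difference of 1.48 (two-sided exact permutation test, p = 0.00794, adjusted p = 0.0131 over 28 pairs). Of the dendritic cell markers, Flt3 was at most 0.299 CPM in any library, Clec9a rose to 1.68 ± 1.09 CPM and Clec10a fell to 0.440 ± 0.252 CPM, and the part of such cells in the Irf8 counts was not tested.

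Irf4, the relative of Irf8 linked to alternative activation, lies at chr13:30841095-30858796 on the plus strand. It was the least abundant member, with 0.869 to 1.96 CPM in controls (median 1.33) and 0.343 to 1.76 CPM in ox-LDL libraries (median 1.13). The libraries held 4 to 38 counts of it. The groups overlapped, with a log2 fold change of -0.18 (SE 0.40, adjusted p = 0.785, edgeR). The log2 ratio of Irf8 to Irf4 was 6.27 in controls and 9.65 in ox-LDL libraries, a difference of 3.38 (two-sided exact permutation test, p = 0.00794, adjusted p = 0.0131 over 28 pairs).

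Irf5, the factor that acts with MyD88 on cytokine genes, lies at chr6:29476625-29491869 on the plus strand. Irf5 had 139.5, 140.3, 137, 163 and 191 CPM in control replicates 1 to 5 and 101, 119, 147, 194 and 422 CPM in ox-LDL replicates 1 to 5. The ox-LDL libraries spread on both sides of the controls, and replicate 5 alone held over 2 times the level of the next. The log2 fold change was 0.35 (SE 0.36, adjusted p = 0.510, edgeR), and without ox-LDL replicate 5 it was -0.15. The log2 ratio of Irf5 to Irf4 was 6.85 in controls and 7.31 in the ox-LDL group, which did not differ by the test (difference 0.47, two-sided exact permutation p = 0.357, adjusted p = 0.417 over 28 pairs). Irf5 shares 411 bases, 14.2% of its exonic bases, with Tnpo3 on the opposite strand, and whether the counts used strand is not given in the sources used here. The other members share at most 3.40% of their exonic bases with a neighbour.

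**Figure D2:**
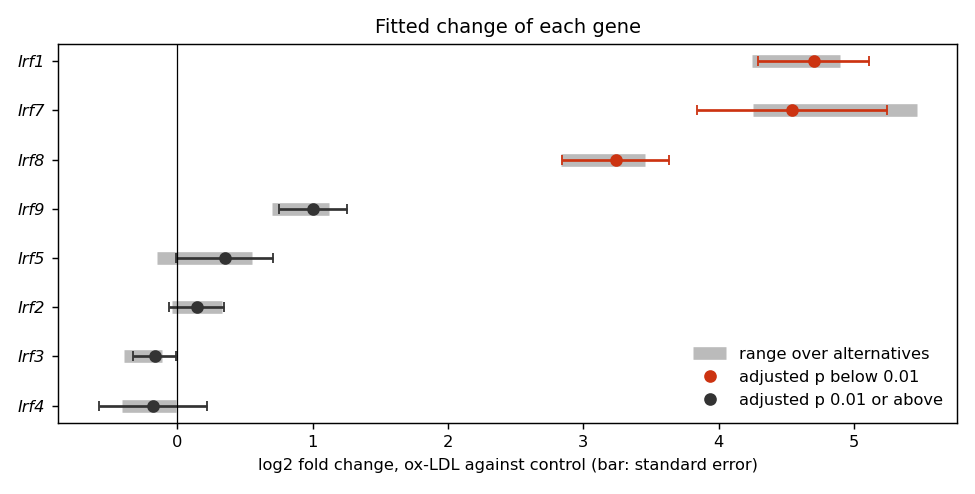
Log2 fold change of ox-LDL against control for each IRF gene from edgeR (horizontal axis), with its standard error as a bar and the range over the alternative settings as a grey band. Irf1, Irf7 and Irf8 lie between 2.84 and 5.46 under every alternative, and Irf9 between 0.70 and 1.12.

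Since levels of different genes can be compared only per length, the order of the family was taken from FPKM. In controls Irf5 led with 82.1 ± 16.0 FPKM, followed by Irf8 with 41.6 ± 10.9 FPKM, and their ranges did not overlap. Irf3, Irf9, Irf7, Irf1 and Irf2 followed at means of 21.3, 19.1, 15.2, 12.9 and 9.66 FPKM, where each overlapped its neighbour in this order. The place of Irf7 rested on control replicate 5 (45.4 FPKM). Without that library the control mean of Irf7 was 7.64 ± 1.72 FPKM (SD, n = 4), below Irf1 (11.5 ± 0.589 FPKM) and Irf2 (8.57 ± 1.81 FPKM). Irf4 was last, at 0.350 ± 0.146 FPKM. In the ox-LDL group Irf8 (323 ± 150 FPKM), Irf7 (309 ± 230 FPKM) and Irf1 (278 ± 128 FPKM) came first, with ranges that overlapped each other and that of Irf5 (90.3 ± 53.0 FPKM). Irf9 followed at 32.8 ± 11.1 FPKM, above Irf3 (16.3 ± 2.23 FPKM) without overlap, then Irf2 at 9.65 ± 3.30 and Irf4 at 0.336 ± 0.196 FPKM.

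The summed FPKM of the 8 genes, which carries no TMM scaling, was 202 ± 51.4 in controls (160 to 291). It was 1060 ± 393 in ox-LDL libraries (703 to 1695), and the control mean was 179.8 ± 14.1 without replicate 5. Irf5 made up 41.0% ± 2.81 of this sum in controls and 8.21% ± 2.79 in the ox-LDL group, the largest difference of any member. Irf1 went from 6.41% ± 0.584 to 26.5% ± 6.90, and Irf7 from 6.56% ± 5.16 to 28.3% ± 18.3. Control replicate 5 had an Irf7 share of 15.6%, and the control mean was 4.31% ± 1.26 without it. The share of Irf8 was 18.7% to 21.7% in the controls. In the ox-LDL group it was 14.1% in replicate 1, below every control, and 31.8% to 39.2% in the other 4, above every control. Irf3 went from 10.8% to 1.68%, Irf9 from 9.74% to 3.14%, Irf2 from 4.75% to 0.947% and Irf4 from 0.184% to 0.0344%. A share that falls here need not mean less RNA of that gene, since the sum itself was larger, and Irf9 had a lower share with a higher level.

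**Figure D3:**
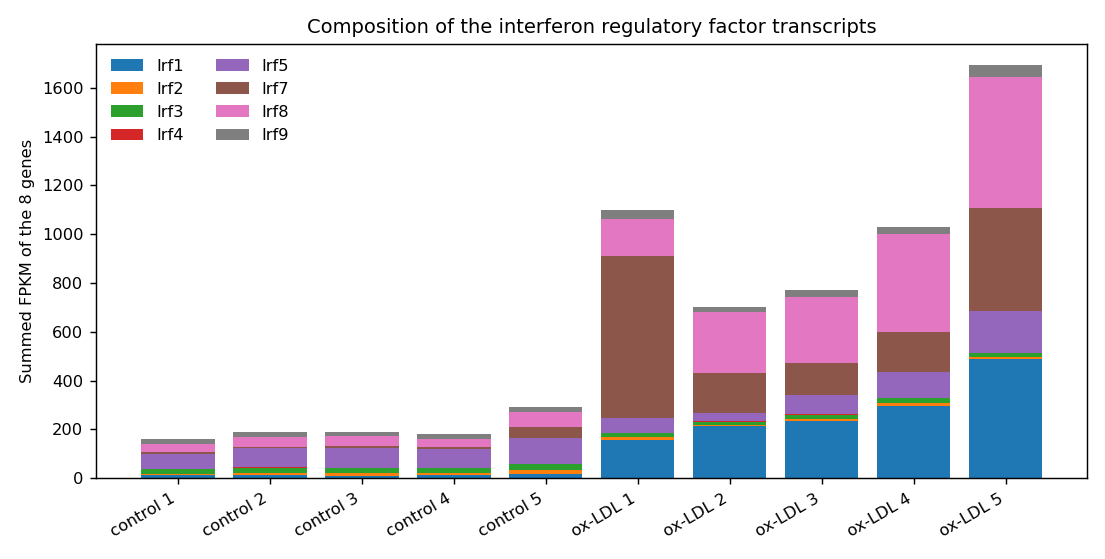
Composition of the summed FPKM of the 8 IRF genes in each of the 10 libraries, one bar per library starting at 0 and one segment per gene. Irf5 is the largest segment in all control libraries, whereas Irf1, Irf7 and Irf8 fill most of each ox-LDL bar and Irf7 alone makes up 60.3% in ox-LDL replicate 1.

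The 3 members that rose did not vary together among the ox-LDL libraries. Ox-LDL replicate 1 had the lowest Irf1 and Irf8 of its group, at deviations of -1.07 and -1.29 from the group mean of log2(CPM + 1), and the highest Irf7, at 1.04. Irf7 was 60.3% of the summed FPKM in that library and 16.0% to 24.8% in the remaining replicates of the group. The log2 ratio of Irf7 to Irf1 was 1.84 in ox-LDL replicate 1 and between -1.09 and -0.47 in the other 4. Among the controls it was 1.07 in replicate 5 and between -1.33 and -0.52 in the other 4. Over the deviations of the 10 libraries, Irf1 and Irf8 had a Pearson r of 0.964, Irf1 and Irf5 of 0.795, Irf1 and Irf7 of 0.275, and Irf7 and Irf8 of 0.161. These correlations describe 10 libraries that share depth and scaling.

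**Figure D4:**
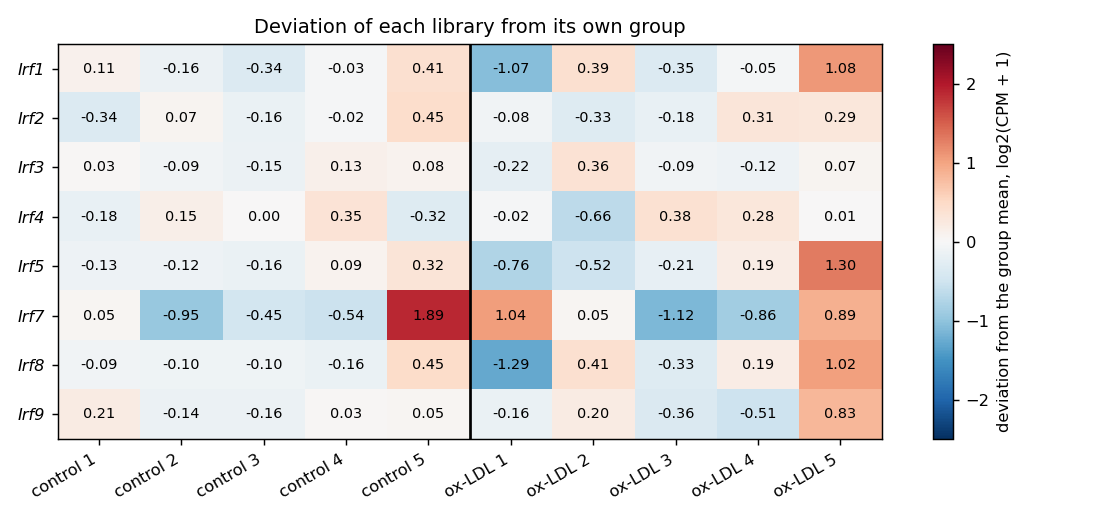
Heatmap of the deviation of each IRF gene (rows) from its own group mean in every library (columns), as a difference in log2(CPM + 1) written in each cell and coloured from blue (below the mean) to red (above it). Irf1 and Irf8 run together across the 10 libraries, whereas Irf7 peaks in replicate 5 of the controls and in replicate 1 of the ox-LDL group, where Irf1 and Irf8 are lowest of the ox-LDL group.

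The genes with the most similar deviations, among 7513 genes with a mean of at least 10 CPM, differed between members. For Irf1 they were Cebpb (r = 0.971), Ccrl2 (r = 0.965) and Irf8. For Irf8 they were Gbp2 (r = 0.967), Dnase2a (r = 0.964) and Irf1. For Irf7 they were Marcks (r = 0.930), Maf (r = 0.915) and Gm13710 (r = 0.889). The closest genes were Ifi204 (r = 0.981), Rnf34 and Arpc4 for Irf9, and Tpst2 (r = 0.986), Zfp36 and Slc9a3r1 for Irf5. Mrtfa, Sbno2 and Dip2b were closest to Irf2, Edf1, Pym1 and Gmfg to Irf3, and Nr1d2, Sav1 and Acpp to Irf4, each with r between 0.932 and 0.985 over the 10 libraries. All of these genes were picked for the highest r among the genes compared, in libraries that differed in their length trends. Shared regulation was not tested.

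Upstream of the IRFs stand the sensors, adaptors and kinases that activate them. Of 20 such genes, 5 were called higher, 0 were called lower and 15 were not called, where 9.40% of all genes tested were called higher. Their median log2 fold change was 0.23, against 0.10 over all genes. Traf3, the adaptor that links TRIF and MAVS to the IRF3 kinases, rose by 1.54 (SE 0.27), the RNA sensor gene Ifih1 by 1.33 (SE 0.27), and Traf6, the ubiquitin ligase of MyD88 signaling, by 1.14 (SE 0.27) on the log2 scale. Traf6 lost its call without any 1 of 8 of the 10 libraries (adjusted p 0.0102 to 0.0258, edgeR), and Ifih1 without control replicate 1 (0.0114) or 4 (0.0119). The calls of Traf3, Ifih1 and Traf6 were also lost by library size alone (0.0166 to 0.0673) and by the limma fits on FPKM (0.0583 to 0.305). The count of the list called higher was 3 without control replicate 1 or 4 and 7 without ox-LDL replicate 2, and 3 genes were called lower without ox-LDL replicate 1.

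Of 9 listed interferon ligands, 3 had a row in the table. The listed interferon alpha and lambda genes had none and were not analysed here. Ifnb1, which IRF3 and IRF7 are known to switch on, had 0 counts in every control and 2, 1, 1, 0 and 6 counts in ox-LDL replicates 1 to 5. Ifnk had at most 1 count. Ifng, the type II interferon usually made by lymphocytes, was the single ligand tested, with 0, 0, 0, 0 and 5 counts in control replicates 1 to 5 and 31, 168, 48, 56 and 405 counts in ox-LDL replicates 1 to 5. Its adjusted p was 8.60e-04 (edgeR), and its fold change is poorly determined because 4 controls had 0 counts. The summed T cell markers were 0.893 to 1.52 CPM in controls and 0.927 to 2.57 CPM in ox-LDL libraries, and their part in the Ifng counts was not tested.

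Of 9 interferon receptor and JAK-STAT genes, 4 were called higher and 1 lower, where 9.40% and 5.35% of all genes were. Their median log2 fold change was 0.81, against 0.10 over all genes. Stat2, which encodes a partner of IRF9 in ISGF3, rose from 12.8 ± 3.01 to 55.0 ± 22.8 CPM (log2 fold change 2.10, SE 0.30, adjusted p = 3.71e-04, edgeR). The fold change of Irf9 was smaller, and the difference between them was not tested. Ifngr1, the ligand-binding chain of the interferon gamma receptor, fell from 171 ± 31.7 to 54.4 ± 11.2 CPM (log2 fold change -1.66, SE 0.21, adjusted p = 1.84e-04, edgeR).

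The DNA-binding partners of the IRFs moved unevenly, with 3 of 9 tested called higher and 1 lower, where 9.40% and 5.35% of all genes were. Their median log2 fold change was 0.55, against 0.10 over all genes. Batf2, a leucine zipper partner of IRF1 and IRF8, rose from 1.74 ± 0.461 to 29.1 ± 13.8 CPM (log2 fold change 4.06, SE 0.34, adjusted p = 1.59e-05, edgeR). Cebpb rose by 2.19 (SE 0.30), and Batf, which binds with IRF4 and IRF8, by 1.96 (SE 0.31). Ikzf1, the lymphoid and myeloid factor Ikaros, fell by 1.07 (SE 0.22) on the log2 scale. That call was lost without control replicate 4 or 5 or without ox-LDL replicate 3 or 4 (adjusted p 0.0106 to 0.0138, edgeR), and also by library size alone (0.0290), with the replicate block (0.0102) and by limma on FPKM (up to 0.0598).

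Of 12 inhibitors and cofactors, 4 were called higher and 0 lower, where 9.40% and 5.35% of all genes were. The list median was a log2 fold change of 0.69, against 0.10 over all genes. Socs3 rose from 3.53 ± 2.78 to 169 ± 190 CPM (log2 fold change 5.58, SE 0.77, adjusted p = 3.22e-04, edgeR). Socs1, which blocks JAK kinases, rose by 5.12 (SE 0.80), and Tnfaip3, which encodes the NF-κB inhibitor A20, by 2.28 (SE 0.30).

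All of the 20 listed targets of ISGF3, IRF3 and IRF7 were called higher, where 9.40% of all genes were. Their median log2 fold change was 3.18, against 0.10 over all genes. The lists were chosen with earlier results of these data known. Isg15, the ubiquitin-like modifier, rose from 9.61 ± 2.60 to 435 ± 359 CPM (log2 fold change 5.50, SE 0.61, adjusted p = 8.10e-05, edgeR). Ifit2 rose by 6.11 (SE 0.80) and Ifi44 by 5.97 (SE 0.74). Of 17 tested IRF1 targets, 15 were called higher and 0 lower, with a median of 3.97. Gbp5, a guanylate-binding protein, rose from 1.77 ± 2.54 to 441 ± 395 CPM (log2 fold change 7.95, SE 1.03, adjusted p = 2.23e-04, edgeR). Cxcl9 rose by 8.25 (SE 1.28) and Nos2, the inducible nitric oxide synthase, by 8.13 (SE 1.69). The Nos2 call was lost without any 1 of control replicates 1 to 4 (adjusted p 0.0101 to 0.0124, edgeR) and without a filter (0.0344). The count of IRF1 targets called higher was 12 to 15 over the 10 fits that left out 1 library.

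The levels of the lists also varied within the ox-LDL group. The mean of log2(CPM + 1) over the 17 IRF1 targets was lowest of the group in ox-LDL replicate 1, at a deviation of -0.74. Over the 20 ISGF3, IRF3 and IRF7 targets that library was above the group mean, at 0.21. Both lists were highest in replicate 5, at 0.98 and 1.03. Other lists were also low in ox-LDL replicate 1, the IRF4-linked genes at -0.77, the DNA-binding partners at -0.29 and the inhibitors and cofactors at -0.28, and no difference between lists was tested.

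The 4 tested IRF5 targets, cytokine genes of the inflammatory macrophage, were all called higher, where 9.40% of all genes were. Irf5 itself did not pass the test. Il12a rose from 0.0348 ± 0.0777 to 15.0 ± 14.6 CPM and Il12b from 0.186 ± 0.358 to 58.1 ± 69.5 CPM. No control library had more than 3 counts of Il6, so its rise is a lower bound of at least 5.27 on the log2 scale, set against 3 counts in each control library. The median log2 fold change of the list was 7.44, and 6.73 with Il6 at its bound, against 0.10 over all genes. Il12a and Il12b had at most 4 and 19 counts in any control library. Their fold changes, and both list medians, are therefore poorly determined. With a filter of at least 10 counts per library, 1 of these genes was tested and called.

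The alternative activation genes linked to IRF4 did not move one way. Of 8 tested, 3 were called higher and 1 lower, where 9.40% and 5.35% of all genes were. The median log2 fold change was 1.80 in the list and 0.10 over all genes. Ccl22 rose by 4.23 (SE 0.83), Kdm6b, the histone demethylase gene, by 3.28 (SE 0.52), and Il4ra, the interleukin-4 receptor chain, by 2.35 (SE 0.36). Mrc1, the mannose receptor gene, fell from 57.4 ± 16.1 to 12.1 ± 4.17 CPM (log2 fold change -2.24, SE 0.28, adjusted p = 1.69e-04, edgeR). The Ccl22 call was lost without control replicate 1 or 4 (adjusted p up to 0.0108, edgeR), and also by limma-voom (0.0202), without a filter (0.0277), with the replicate block (0.0138) and by limma on log2(FPKM + 1) with (0.0141) or without (0.0977) a filter.

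Of 8 myeloid genes linked to IRF8, 2 were called higher and 0 lower, where 9.40% and 5.35% of all genes were. The median log2 fold change was 0.41 in the list and 0.10 over all genes. Cybb, the catalytic subunit of the phagocyte oxidase, rose from 699 ± 136 to 3538 ± 1436 CPM (log2 fold change 2.34, SE 0.33, adjusted p = 3.71e-04, edgeR), and Naip2, an inflammasome sensor of bacterial secretion proteins, by 1.43 (SE 0.26). The Naip2 call was lost by library size alone (adjusted p = 0.0183, edgeR) and by the 3 limma fits on FPKM (0.0437 to 0.163). Without ox-LDL replicate 1, 2 genes of this list were called lower.

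Of 5 cell death genes linked to IRF1 and IRF2, 3 were called higher and 0 lower, where 9.40% and 5.35% of all genes were. The median log2 fold change was 1.22 in the list and 0.10 over all genes. Casp4, the mouse caspase-11 gene, rose from 39.2 ± 11.3 to 201 ± 154 CPM (log2 fold change 2.36, SE 0.42, adjusted p = 0.00170, edgeR). Gsdmd, the gasdermin D gene, rose from 44.4 ± 4.41 to 104 ± 42.4 CPM (log2 fold change 1.22, SE 0.25, adjusted p = 0.00360, edgeR). Gm12250, the gene of the immunity-related GTPase IRGB10, rose by 4.55 (SE 0.42). The Gsdmd call was lost without control replicate 2, 3 or 4 (adjusted p 0.0119 to 0.0135, edgeR), and also by library size alone (0.0110), with the replicate block (0.0117) and by 2 of the 3 limma fits on FPKM (up to 0.0253).

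**Figure D5:**
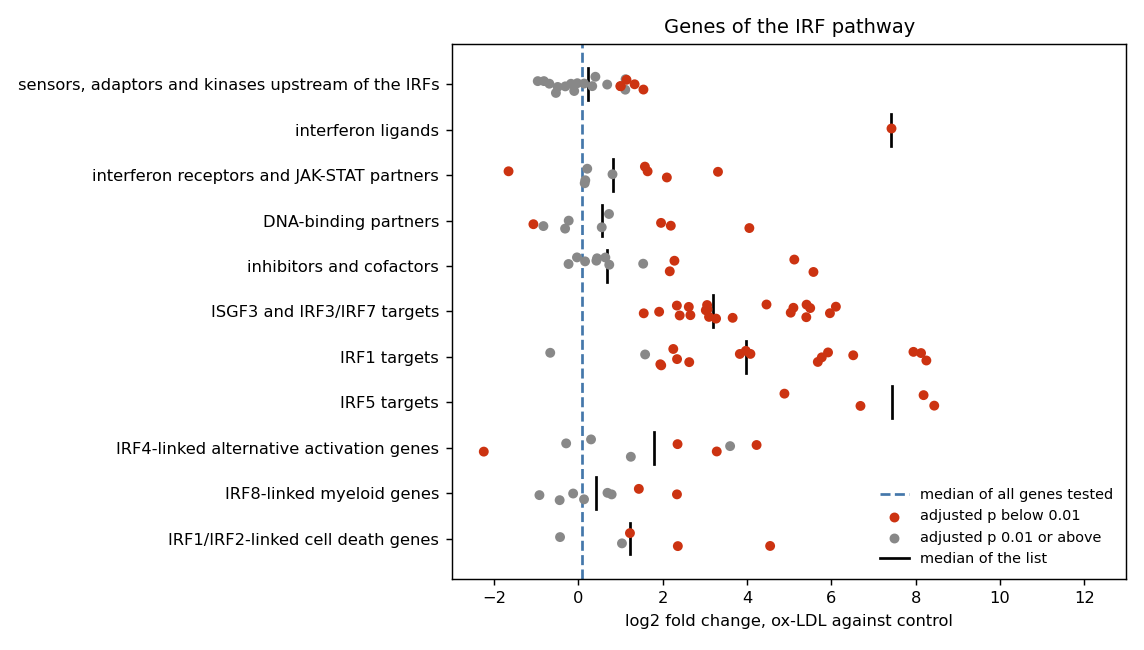
Log2 fold change of ox-LDL against control (horizontal axis) for every tested gene of each IRF pathway list (rows), with called genes in red, a black line at each list median and a dashed line at the median of all genes. Fitted values are drawn also for genes near 0 in controls, such as Il6 and Ifng, where they depend on the prior count. All of the 20 ISGF3 and IRF3/IRF7 targets lie to the right of 0 and were called, whereas the sensors, adaptors and kinases lie around a median of 0.23.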

How the data were processed

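Total RNA of 5 control and 5 ox-LDL libraries was sequenced on the BGISEQ-500 platform. Per the labels and the submitters' processing notes, HISAT2 2.0.5, SAMtools 1.4 and StringTie 1.3.3.13 were used with the build mm9. Estimated counts were deposited in 1 table of all libraries, and 13.6% of its values were not whole. The counting step and its use of strand are not given in the sources used here. The authors also deposited normalized values per gene and library without a unit, treated here as FPKM, made from the counts before deposit by scaling to gene length and library total, since the length implied by count, value and total was nearly constant (median coefficient of variation 0.917% over 5054 genes). Symbols of 22818 of 23382 NCBI rows came from RefSeq (GRCm38.p6) and coordinates from GENCODE on NCBIM37.

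Estimated counts were rounded. The 9788 circular RNA rows were left out. Genes were filtered with filterByExpr by group, normalized by TMM and tested with edgeR 4.0.16 (robust quasi-likelihood, R 4.3.3) with Benjamini-Hochberg adjustment over 12654 genes, called at 0.01. CPM are TMM-scaled. Ratios between members used a count plus 0.5 and an exact permutation test over 252 arrangements. With 5 libraries per group, p-values measure the spread between these libraries. Libraries of a group differed by more than sampling noise, so none was counted as a repeat of another. Groups were taken from the labels. The members and gene lists were chosen with earlier results of these data known.

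Named genes were all members, the 3 called genes with the largest change of each list (and the strongest in each direction), Casp4 and Gsdmd, and the 3 genes most similar to each member. A gene that this rule names may be left out and is then not reported here. Alternatives were DESeq2 1.42.0, limma-voom and limma 3.58.1 on log2(FPKM + 1) and log2(FPKM + 0.1), other scalings and filters, the replicate number as a block, and each library left out. In simulated data of 12654 genes, edgeR recovered 16 of 68 genes changed by 1 and 64 of 66 changed by 2 on the log2 scale. It recovered 63 of 66 changed by 3, with 1 false call, and DESeq2 made 11 false calls. The simulation gave all genes the same dispersion and had no library that stood apart, so recovery in the real libraries may be lower.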

Additional observations from a re-analysis of the deposited data

Results flagged for a closer look

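Among 26 groups of 5 values examined (each member in CPM, and the other values per library), 3 had a library whose gap to the nearest other exceeded 0.71 of the group's range, where chance gives about 1.3. All of the 3 were control replicate 5. They are not separate events, since the summed FPKM holds Irf7 and Irf8, so 3 cannot be weighed against 1.3 as independent flags. Its Irf7 level was 66.29 CPM, with the next control at 17.87 CPM. Its Irf8 level was 141 CPM, with the next control at 96.25 CPM. Its summed FPKM of the 8 members was 291.4, with the next control at 191.1. Without this library the log2 fold change was 5.44 for Irf7 and 3.37 for Irf8. Irf5 in ox-LDL replicate 5, at 422 CPM, was just under the limit with a gap of 0.708 of the range.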

How the results depend on the processing

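Irf1, Irf7 and Irf8 were called higher under all of the 24 alternatives, with log2 fold changes of 4.24 to 4.90, 4.25 to 5.46 and 2.84 to 3.46. Irf9 was called in 2 of them, and Irf2, Irf3, Irf4 (21 alternatives) and Irf5 in none. The correlations of same-numbered libraries ranged from -0.285 to 0.443, and only 1 of 5 controls matched its own number best. Length trends run through these deviations, so this check cannot tell whether the replicate numbers pair the samples. With the replicate block, edgeR called 1434 genes in place of 1866. With the same numbers as pairs, the differences of the ratios Irf1 to Irf2 (4.40), Irf7 to Irf3 (4.92) and Irf8 to Irf4 (3.38) had an adjusted p of 0.0875, where 5 pairs cannot go below 0.0625. Irf2 changed sign under upper-quartile scaling (-0.00061), library size alone (-0.0179), and limma on log2(FPKM + 1) with (-0.0280) or without (-0.0280) a filter and on log2(FPKM + 0.1) (-0.0360). Irf5 changed sign without ox-LDL replicate 5 (-0.148, the fits without 1 library reaching 0.518 without ox-LDL replicate 1) and by limma on FPKM (-0.0423 with a pseudocount of 1, filtered or not, and -0.0450 with 0.1). Genes called in all numbered 3009 by DESeq2, 2863 with the length trend removed, 3257 without ox-LDL replicate 2, 3326 also without control replicate 5, and 895 by limma on unfiltered FPKM. Other scalings and filters shifted the median log2 fold change of all genes by -0.189 to 0.172, and limma on FPKM by up to -0.272. By limma on log2(FPKM + 1) without a filter, 11 of the 20 ISGF3, IRF3 and IRF7 targets were called, and by library size alone 0 of the sensors, adaptors and kinases; the cause was not tested. Irf4 had 4 to 38 counts per library, and the part of depth in its result was not tested.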
